A study of Mus musculus with 12 samples.

Results

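Ribosomal protein genes of the cytosolic and of the mitochondrial ribosome were measured in Lgr5-GFP+ intestinal stem cells of mice that had lost both, 1 or neither copy of Apc. Members were chosen by symbol, from the prefixes Rpl, Rps, Mrpl and Mrps followed by a digit, together with Rplp0, Rplp1, Rplp2 and Rpsa. Pseudogenes and the Rps6k kinases were left out, and a symbol had to reach 1 FPKM in 4 or more of 12 libraries. FPKM is a fragment count scaled by the length of the transcript and by the mapped fragments of the library. Of 14499 gene symbols in the tables, 152 matched and 151 were members. Subunits were assigned by symbol alone. The members comprise 45 genes of the cytosolic large subunit, 33 of the cytosolic small subunit, 43 of the mitochondrial large subunit and 29 of the mitochondrial small subunit. The last, Rps19bp1, matches by name only, since it encodes a partner of Rps19 and not a subunit. Mrps24 was the 1 symbol under the expression limit, at 0.00 to 0.928 FPKM. A joined entry, Mrps24,Urgcp, was a tested member, so the value under Mrps24 alone may miss reads of that gene. The joined entries Commd5,Rpl8, Flt3l,Rpl13a and RPL24,Rpl24 do not begin as the name rule asks, so they are in neither the members nor the sums. In that order they had 454 to 994, 259 to 980 and 355 to 1088 FPKM in Apc_KO. In Apc_WT they had 524 to 647, 271 to 458 and 372 to 449 FPKM. Just inside the limit were Mrpl18, at a mean of 1.22 FPKM over the 12 libraries, and Mrps6, at 5.23 FPKM. Tests could be made for 147 members. Rps21 was left out of them because its estimate failed in 2 libraries, and Mrpl20, Mrps10 and Mrps25 because their loci differed between the tables. Of the members, 37 share a locus with another symbol, and there the value may hold reads of both genes.

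The libraries came from 4 Apc_KO (ApcFlox/Flox), 4 Apc_HET (ApcFlox/+) and 4 Apc_WT (Apc+/+) mice of the C57BL/6 strain. All 12 mice, the wild types included, carried Lgr5-CreERT2-ires-eGFP and were given tamoxifen, as 1 injection and then 5 days in the diet. GFP+ cells of the intestinal epithelium were taken by FACS at day 15, and RNA was read from random-primed cDNA. The Cre recombinase is driven from the Lgr5 locus, which is active in the stem cells at the crypt base, so recombination starts in those cells and is inherited by their progeny. The labels give no age and no batch.

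A ribosome has a large subunit, which joins amino acids, and a small subunit, which reads the mRNA. The cytosolic ribosome translates nuclear mRNAs, and growth signals through mTOR act on it because many of its mRNAs begin with a C and a run of pyrimidines, the 5′ terminal oligopyrimidine or TOP motif. The mitochondrial ribosome is built from nuclear-encoded proteins that are imported into the organelle, where it makes the few respiratory chain subunits encoded by mitochondrial DNA. In the crypt, Wnt signalling, which Apc restrains, and its target Myc are known for raising ribosome production.

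The start of the transcript is where the cytosolic and the mitochondrial families differ in sequence, so start windows from RefSeq (GRCm38.p6) are shown for both. Each window holds 10 bases before and 20 bases from an annotated start, on the strand of the gene, and capitals mark a C at the start with the unbroken C or T run that follows it. The first 6 are cytosolic members with such a run, named after their sequences were seen, and the last 5 are the mitochondrial members that fell in Apc_KO cells.
Rpl15 (chr14:18270967-18270996, minus strand): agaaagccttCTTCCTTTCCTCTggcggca
Rpl35 (chr2:39005112-39005141, minus strand): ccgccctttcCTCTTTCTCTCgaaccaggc
Rplp2 (chr7:141447641-141447670, plus strand): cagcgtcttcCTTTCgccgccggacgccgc
Rps10 (chr17:27635225-27635254, minus strand): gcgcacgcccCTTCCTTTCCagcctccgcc
Rps6 (chr4:86857348-86857377, minus strand): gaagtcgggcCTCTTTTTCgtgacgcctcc
Rps27 (chr3:90213629-90213658, minus strand): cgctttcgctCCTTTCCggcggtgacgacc
Mrps31 (chr8:22411330-22411359, plus strand): tccaaaaggagcggaacagtgcaggctgga
Mrps5 (chr2:127587416-127587445, plus strand): tccggctccagcatggcggcggccgtacgc
Mrps2 (chr2:28468056-28468085, plus strand): cgggcaggaagagtctctgcaggatctctg
Mrpl37 (chr4:107066847-107066876, minus strand): ccgcccctttggctcccagcagtccctgca
Mrpl9 (chr3:94443326-94443355, plus strand): tcttccgcctgtccgctccgctgtcatggc

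A C followed by at least 4 pyrimidines stood exactly at a listed start in 13 of 58 cytosolic members with a window (22.4%), in 0 of 63 mitochondrial ones and in 3.01% of the 27025 genes of the table. With 5 bases of play on either side the shares were 46.6%, 25.4% and 21.2% in the same order. The 7-base core CCGGAAG, which ETS factors are known to bind, lay on either strand of the 300-base window (250 before the start and 50 from it) in 43.1% of cytosolic, 33.3% of mitochondrial and 9.93% of all genes. A gene with several listed starts counted once. A listed start need not be the start of the locus: the window of Mrps5 lies inside the locus given for that gene below. These are matches of letters, and no binding or translation was measured. The median log2 difference of Apc_KO minus Apc_WT was 0.28 (0.15 to 0.47) for the 12 tested cytosolic members with a run and 0.28 (-0.02 to 0.90) for the 45 without. This split needs a run exactly at a listed start, and with 5 bases of play 27 of the 58 matched. The group without a run may thus hold TOP mRNAs, and whether TOP mRNAs differed was not tested.

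Total FPKM ran from 391710 to 518428 per library, and the spacing of the lowest values put relative depth between 0.369 and 1 of the deepest library, the absolute depth being unknown. Apc itself was at 9.94 to 17.3 FPKM in Apc_KO, 9.81 to 12.5 in Apc_HET and 6.91 to 10.5 in Apc_WT cells, a value for the whole gene that does not show the deletion. The stem cell marker Lgr5 was present throughout, at 27.0 to 65.4 FPKM in Apc_KO, 21.3 to 31.6 in Apc_HET and 20.2 to 30.01 in Apc_WT cells. The other listed stem cell markers, Ascl2, Smoc2 and Rgmb, overlapped between Apc_KO and Apc_WT. Ascl2 was at 12.9 to 25.1 FPKM in Apc_KO and 17.3 to 22.6 in Apc_WT cells. Smoc2 was at 79.8 to 134 and 112 to 125 FPKM, and Rgmb at 33.9 to 80.2 and 50.7 to 77.3 FPKM, in the same order. Olfm4, a further crypt base marker, was at 81.7 to 702 FPKM in Apc_KO, against 5019 to 5782 in Apc_WT cells. Sums over marker lists of other cells also differed: enterocyte markers (5 of 5 found) summed to 48.3 to 194 FPKM in Apc_KO and 798 to 2495 in Apc_WT, and goblet cell markers (5 of 5) to 40.5 to 196 and 883 to 1374. Within the goblet cell list Clca1 overlapped, at 6.04 to 11.5 FPKM in Apc_KO and 8.24 to 13.3 in Apc_WT. Paneth cell markers (4 of 4) summed to 1072 to 5546 FPKM in Apc_KO and 4408 to 7575 in Apc_WT. Within that list Mmp7 went the other way, at 175 to 1101 FPKM in Apc_KO and 77.2 to 175 in Apc_WT. Defa24 was lower, at 171 to 1331 FPKM in Apc_KO and 2083 to 3426 in Apc_WT, while Lyz1 and Ang4 overlapped. Stroma and endothelium markers (3 of 5 found, Col1a1 listed at 0 in 2 Apc_KO libraries) summed to 139 to 148 FPKM in Apc_KO and 6.75 to 20.9 in Apc_WT. Most of that sum was Vim, at 115 to 134 FPKM in Apc_KO and 6.75 to 18.7 in Apc_WT. Cdh5 was at 14.2 to 29.3 and 0 to 0.0158 FPKM in the same order, while Col1a1 overlapped. Leukocyte markers (3 of 5) summed to 0.455 to 2.30 FPKM in Apc_KO and 4.39 to 5.10 in Apc_WT. Of these Itgam was lower, at 0.197 to 0.605 FPKM in Apc_KO and 2.70 to 3.73 in Apc_WT, while Ptprc and Cd3e overlapped. Enteroendocrine markers (4 of 4) summed to 12.5 to 93.1 FPKM in Apc_KO and 236 to 1024 in Apc_WT. Tuft cell markers (3 of 3) went the other way, at 57.5 to 111 FPKM in Apc_KO and 19.5 to 25.5 in Apc_WT, through Avil, while Dclk1 and Trpm5 were lower in every Apc_KO library. In bulk RNA a lower share of a cell type and less RNA per cell cannot be told apart, and the part of these cells in the results below was not tested.

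The RNA of the cytosolic ribosome was abundant and unevenly high among Apc_KO libraries. Summed over the cytosolic members, without Rps21, it took 6.62%, 9.24%, 6.98% and 14.9% of all FPKM in Apc_KO replicates 1 to 4. It took 7.54%, 6.94%, 8.41% and 7.37% in the 4 Apc_HET libraries and 7.45%, 6.62%, 6.69% and 8.53% in the 4 Apc_WT libraries. Apc_KO replicate 4 was far above every other library, while replicates 1 and 3 lay inside the range of Apc_HET and Apc_WT. In FPKM the sums were 25919, 40109, 28514 and 77050 in Apc_KO, 33210, 30503, 36992 and 30332 in Apc_HET and 30364, 32871, 28146 and 37402 in Apc_WT.

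The mitochondrial ribosome summed to 1947, 3102, 2794 and 4591 FPKM in Apc_KO replicates 1 to 4. The sums were 3095, 3098, 3073 and 2881 FPKM in Apc_HET and 2749, 3168, 3193 and 3175 FPKM in Apc_WT libraries. Apc_KO replicate 1 was the lowest of all 12 and replicate 4 the highest, so the genotypes overlapped on both sides. Cytosolic over mitochondrial RNA was 13.3, 12.9, 10.2 and 16.8 in Apc_KO, 10.7, 9.85, 12.04 and 10.5 in Apc_HET and 11.04, 10.4, 8.82 and 11.8 in Apc_WT. Apc_KO replicates 1, 2 and 4 had a ratio above every other library and Apc_KO replicate 3 lay within their range. Of the mitochondrial sum, Mrps28, whose symbol stands at 2 loci, alone held 164 to 834 FPKM in the Apc_KO libraries. Without it the sums were 1739, 2939, 2352 and 3757 in Apc_KO and 2531, 2783, 2717 and 2995 in Apc_WT.

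**Figure D1:**
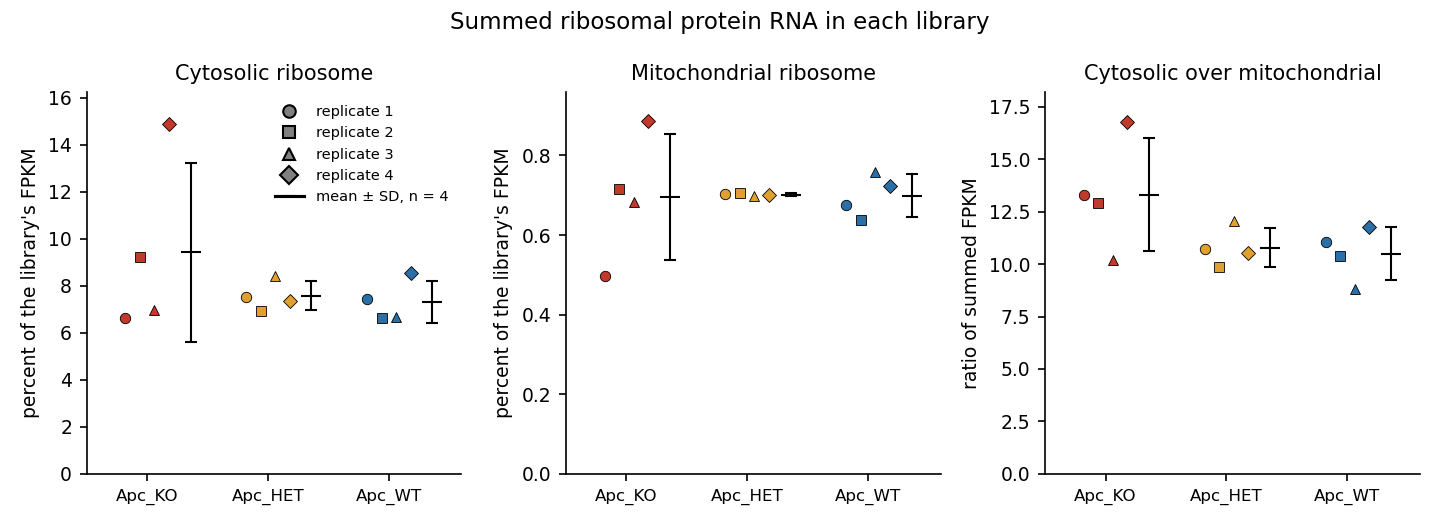
Each point is 1 library, with the genotype on the x axis and, from left to right, the percent of the library's FPKM in cytosolic members, the same for mitochondrial members, and the ratio of the 2 sums; bars give mean ± SD (n = 4). Apc_KO replicate 4 stands at 14.9% for the cytosolic ribosome, and the Apc_KO libraries spread over 0.497% to 0.886% for the mitochondrial one.

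The Apc_KO libraries took nearly the same order in gene after gene. Replicate 4 was highest, then replicate 2, then replicate 3, then replicate 1 in 117 of 147 tested members (79.6%), an order chosen after the values were seen that held in 13.1% of all 12962 genes tested. Replicate 4 was the highest Apc_KO library in all 77 tested cytosolic members, against 35.2% of all genes. Replicate 1 was the lowest in 128 of 147 members (87.1%), against 32.4% of all genes. Apc_KO had the largest SD of the 3 genotypes in 145 of 147 members (98.6%), against 73.2% of all genes. The median SD on the log2 scale was 0.71 for cytosolic large and 0.75 for cytosolic small subunit genes in Apc_KO cells, against 0.17 and 0.20 in Apc_WT cells. For the mitochondrial large and small subunit genes it was 0.50 and 0.49 in Apc_KO, against 0.14 and 0.14 in Apc_WT.

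Median log2 deviations from the Apc_WT mean show the same 2 families moving together within a library. They were -0.29, 0.37, -0.15 and 1.22 for the cytosolic large subunit in Apc_KO replicates 1 to 4, and -0.33, 0.31, -0.22 and 1.31 for the cytosolic small subunit. They were -0.67, 0.08, -0.26 and 0.43 for the mitochondrial large and -0.79, -0.02, -0.27 and 0.30 for the mitochondrial small subunit. In each of these 4 libraries both mitochondrial medians were below both cytosolic medians. Summed proliferation markers did not take this order, at 115, 310, 327 and 137 FPKM in Apc_KO replicates 1 to 4.

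Short transcripts of other genes deviated in the same libraries. Among genes outside the family with transcripts under 600 bases the median deviations in Apc_KO replicates 1 to 4 were -0.56, 0.02, -0.32 and 0.63, and among those over 4000 bases 0.26, 0.13, 0.25 and -0.16. Ribosomal protein genes under 600 bases deviated by -0.36, 0.38, -0.24 and 1.38 in these libraries, and those of 900 to 1500 bases by -0.48, 0.14, -0.20 and 0.69. The median transcript length was 757 bases for the cytosolic large and 744 for the cytosolic small subunit, and 1226 and 1064 for the mitochondrial large and small subunit. The part of transcript length in the differences between genotypes was not tested.

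**Figure D2:**
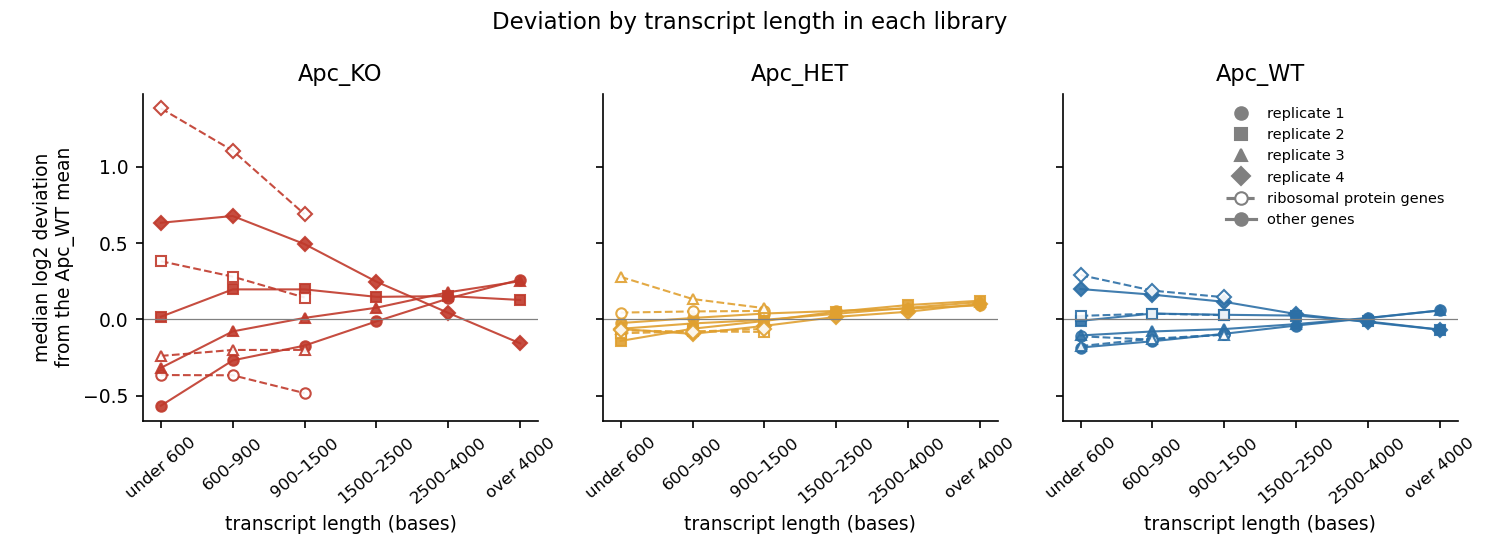
Median log2 deviation from the Apc_WT mean (y axis) by transcript length in bases (x axis), 1 line per library and 1 panel per genotype; dashed lines with open marks are ribosomal protein genes, in classes of at least 20 genes, and solid lines all other genes. Lines fan out at short lengths in Apc_KO, where ribosomal protein genes under 600 bases reach 1.38 in replicate 4 and other genes of that length 0.63.

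Apc_KO was set against Apc_WT to ask how the RNA of either ribosome differed once both Apc copies were gone. No cytosolic member passed the test, and 6 mitochondrial members did, 1 higher and 5 lower. These were 6 of 147 members tested, where 45.5% of all 12962 genes tested were called at an adjusted p under 0.05 (limma on log2(FPKM + 1), Benjamini-Hochberg over all genes). By direction, 27.9% of all genes were called higher and 17.7% lower. The median standard error of the difference was 0.30 for cytosolic and 0.21 for mitochondrial members, against 0.17 for all genes, so a missed threshold does not show that levels were alike. Of the 77 cytosolic members 76 had a positive difference, but members of 1 ribosome rose and dipped together by library, and without Apc_KO replicate 4 their median turned negative.

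The cytosolic large subunit had a median log2 difference of 0.29 over 45 genes, from 0.08 for Rpl21 to 0.90 for Rpl41, where the median of all genes was 0.12. With size factors the median was 0.17 and that of all genes 0.01. Without Apc_KO replicate 4 it was -0.02, and without replicate 1 it was 0.49. Rpl4, a protein of this subunit, was the member of highest mean. It had 1016, 1347, 1141 and 2371 FPKM in Apc_KO, 1385, 1371, 1441 and 1429 in Apc_HET and 1294, 1346, 1167 and 1306 in Apc_WT libraries. Replicates 1 and 3 of Apc_KO were below every Apc_WT library and replicate 4 far above, and the difference of 0.12 (SE 0.28) did not pass (limma adjusted p = 0.759).

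The P stalk, which recruits elongation factors to the large subunit, is formed by Rplp0 with Rplp1 and Rplp2. Rplp0 was at 953, 1459, 1088 and 2101 FPKM in Apc_KO, 1056, 951, 1074 and 943 in Apc_HET and 1000.5, 981, 916 and 1183 in Apc_WT. Rplp1 was at 585, 1043, 716 and 1848 FPKM in Apc_KO, 773, 679, 889 and 639 in Apc_HET and 695, 763, 672 and 900 in Apc_WT. Their differences were 0.39 (SE 0.27) and 0.33 (SE 0.32), and that of Rplp2 was 0.26 (SE 0.26). None passed (limma adjusted p = 0.255 for Rplp0, 0.431 for Rplp1 and 0.436 for Rplp2), nor did any of the 3 in 18 alternatives. In a further setting, centred on the mitochondrial median, Rplp0 and Rplp2 were called higher, as were 26% of all genes. Apc_KO replicate 1 lay below or among the Apc_WT libraries in all 3 genes.

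Rpl7, a paralog pair member, was the 1 cytosolic gene whose Apc_KO libraries all lay above Apc_WT. It had 232, 313, 235 and 628 FPKM in Apc_KO, 212, 205, 230 and 218 in Apc_HET and 206, 219, 187 and 218 in Apc_WT, and it shares a locus with Rdh10. The difference was 0.64 (SE 0.26, limma adjusted p = 0.0663), and without Apc_KO replicate 1 or 3 it passed, at 0.79 in each case. With quantile normalization Rpl7 also passed, at 0.64 (limma adjusted p = 0.00393), where 21.3% of all genes were called higher. Of all genes, 24.3% had Apc_KO wholly above Apc_WT. Rpl41, named after its values were seen, encodes the smallest ribosomal protein and had the largest difference, with 485, 1244, 566 and 2599 FPKM in Apc_KO and 436, 471, 390 and 917 in Apc_WT (0.90, SE 0.48, limma adjusted p = 0.154). Rpl41 and Rpl7 were the 2 cytosolic members called with quantile normalization, both higher.

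The cytosolic small subunit had a median log2 difference of 0.28 over 32 genes, 0.16 with size factors and -0.06 without Apc_KO replicate 4. Rps28, a small protein near the mRNA exit, had 1099, 1360, 1084 and 3229.8 FPKM in Apc_KO, 1174, 1116, 1413 and 1057 in Apc_HET and 1045, 1357, 1063 and 1237 in Apc_WT, at a locus shared with Ndufa7. Rpsa, the laminin receptor homologue of the subunit's head, had 169, 264, 204 and 371 FPKM in Apc_KO and 207, 231, 205 and 236 in Apc_WT. The difference was 0.37 (SE 0.34) for Rps28 and 0.14 (SE 0.21) for Rpsa, and neither passed (limma adjusted p = 0.409 for Rps28 and 0.620 for Rpsa). Apc_KO replicate 4 was the highest of all libraries in both genes, and the genotypes overlapped. Rps19bp1, no subunit, behaved alike, at 24.8, 39.6, 33.9 and 62.4 FPKM in Apc_KO and 24.7, 28.3, 31.1 and 31.7 in Apc_WT (0.39, SE 0.21, limma adjusted p = 0.163).

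**Figure D3:**
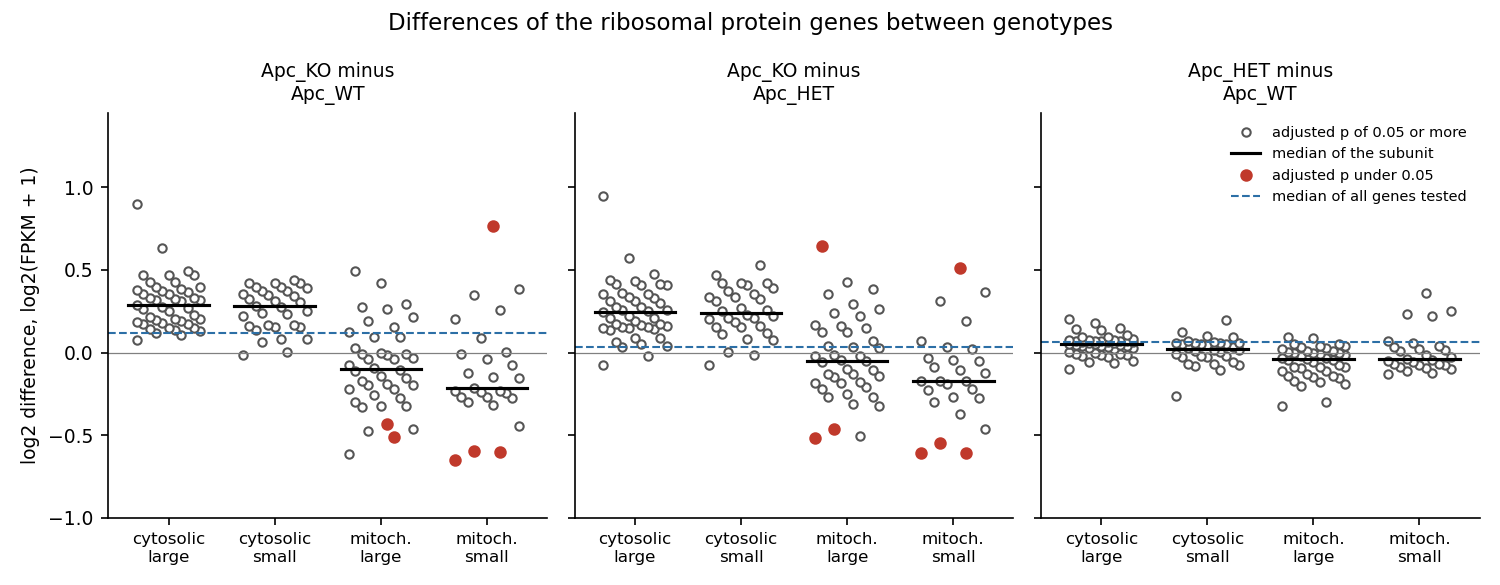
Each point is 1 ribosomal protein gene, by subunit on the x axis, with its log2 difference on the log2(FPKM + 1) scale on the y axis for the 3 comparisons; filled points have an adjusted p under 0.05 (limma), black bars are subunit medians and the dashed line is the median of all genes. For Apc_KO minus Apc_WT the cytosolic medians are 0.29 and 0.28 and the mitochondrial ones -0.10 and -0.21, while for Apc_HET minus Apc_WT they lie between -0.04 and 0.05.

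The mitochondrial large subunit had a median difference of -0.10 over 42 genes and the mitochondrial small subunit -0.21 over 27 genes. Of the 69 genes 50 had a negative difference, 5 fell and 1 rose. With size factors 12 were called lower and 1 higher, where 21.7% of all genes were called lower and 22.3% higher. With quantile normalization it was again 12 and 1, where 23.5% of all genes were lower and 21.3% higher. Of all called genes, 61.2% were higher without rescaling, 50.7% with size factors and 47.6% with quantile normalization. Without Apc_KO replicate 4, 18 mitochondrial members fell and 1 rose, the medians being -0.27 and -0.38, where 19.1% of all genes fell and 29.2% rose. Without Apc_KO replicate 1, 5 fell and 4 rose, the medians being 0.09 and -0.01, where 17.5% of all genes fell and 29.3% rose.

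The called members of the small subunit were Mrps31, Mrps5, Mrps2 and the joined entry described further on. Mrps31 (chr8:22411361-22429665) had 9.82, 13.7, 12.2 and 17.6 FPKM in Apc_KO, 19.8, 19.2, 19.7 and 23.1 in Apc_HET and 20.8, 21.0, 19.2 and 23.6 in Apc_WT libraries. All Apc_KO libraries were below all others, and the gene fell by 0.65 on the log2 scale (SE 0.15, limma adjusted p = 0.00311). Mrps5 (chr2:127587222-127606829), which lines the path by which mRNA enters the small subunit, had 17.9, 28.1, 24.6 and 28.6 FPKM in Apc_KO, 38.7, 38.0, 35.0 and 39.6 in Apc_HET and 33.8, 39.5, 39.1 and 37.3 in Apc_WT. It fell by 0.59 (SE 0.13, limma adjusted p = 0.0030), again with no overlap.

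Mrps2, a small subunit protein with bacterial relatives, sits at chr2:28468066-28471178 and had 20.5, 34.7, 31.1 and 27.3 FPKM in Apc_KO and 44.0, 43.5, 46.5 and 37.6 in Apc_WT. It fell by 0.60 (SE 0.16, limma adjusted p = 0.00774). In the large subunit, Mrpl37 (chr4:107055874-107066868) had 20.6, 36.9, 34.2 and 32.5 FPKM in Apc_KO and 39.3, 46.3, 46.1 and 43.2 in Apc_WT. Mrpl9 (chr3:94443318-94451130) had 47.1, 65.1, 57.1 and 66.7 FPKM in Apc_KO and 74.9, 85.7, 73.8 and 83.9 in Apc_WT. In these 3 genes the Apc_KO libraries stayed wholly below Apc_WT. Mrpl37 fell by 0.51 (SE 0.15, limma adjusted p = 0.0156) and Mrpl9 fell by 0.43 (SE 0.11, limma adjusted p = 0.00827). Altogether 5 mitochondrial members lay wholly below Apc_WT and 1 wholly above, where 16% of all genes were wholly lower, 24.3% wholly higher and 40.4% either.

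The locus named for both Mrps6 and Slc5a3 was the 1 that rose. It had 111, 111, 110 and 83.8 FPKM in Apc_KO replicates 1 to 4, 78.7, 61.2, 95.4 and 58.7 in Apc_HET and 74.4, 56.1, 53.3 and 59.4 in Apc_WT. Apc_KO lay wholly above Apc_WT, by 0.77 (SE 0.17, limma adjusted p = 0.00286), and here replicate 4 was the lowest Apc_KO library. Slc5a3 encodes a myo-inositol transporter, and the joined value does not separate it from Mrps6. The entry named Mrps6 alone had 14.5, 5.87, 3.44 and 1.05 FPKM in Apc_KO and 11.3, 2.87, 1.71 and 1.60 in Apc_WT (0.38, SE 0.64, limma adjusted p = 0.657), so the rise rests on the joined entry.

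**Figure D4:**
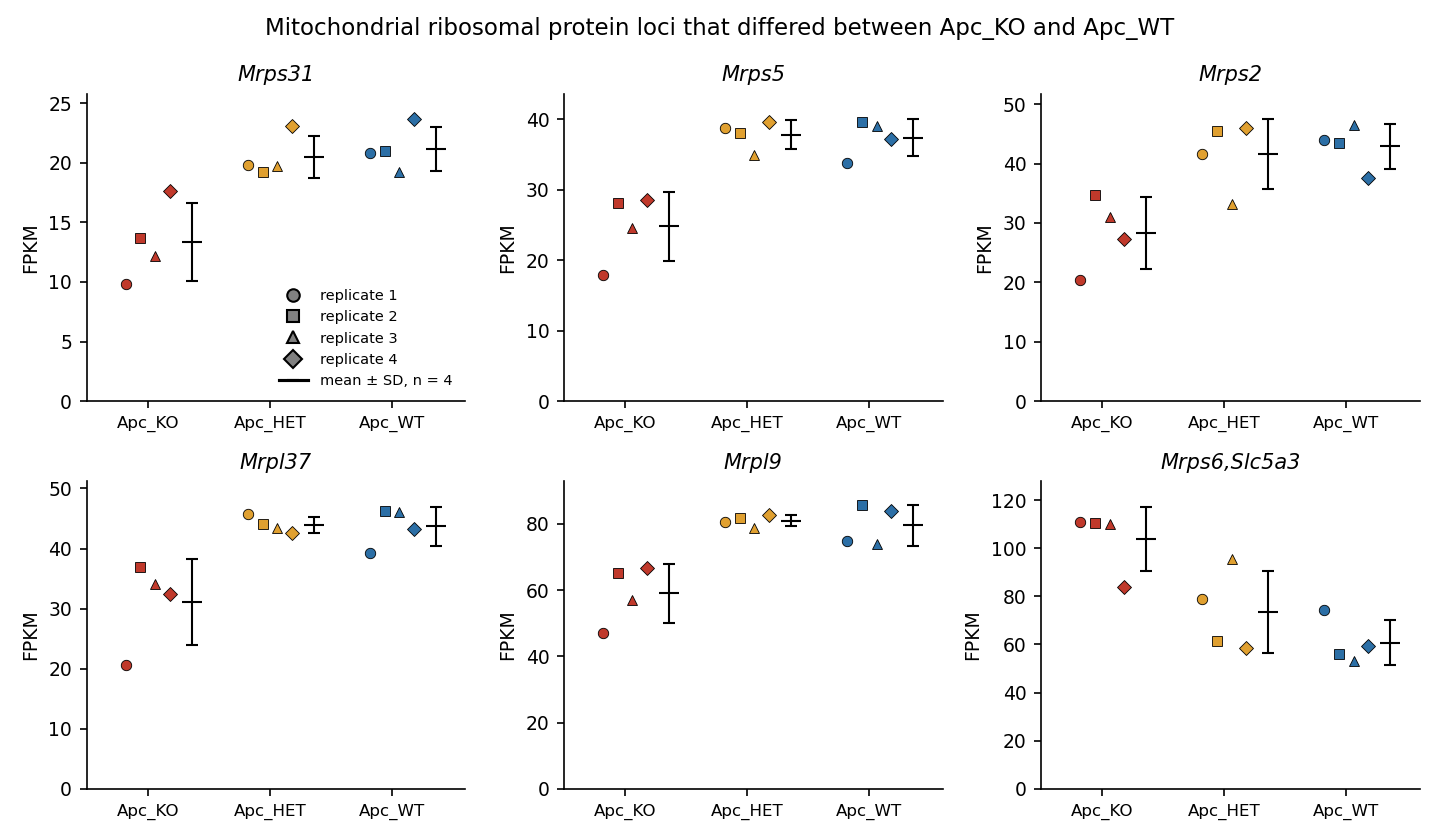
FPKM (y axis, from 0) of the 6 mitochondrial ribosomal protein entries called between Apc_KO and Apc_WT, by genotype (x axis); points are libraries and bars mean ± SD (n = 4). In 5 of them every Apc_KO library is below every Apc_WT library, and in Mrps6,Slc5a3 every one is above.

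Among mitochondrial members that did not pass, the 2 of highest level in the large subunit differed from each other. Mrpl42 had 49.9, 117, 90.3 and 145 FPKM in Apc_KO and 123, 165, 147 and 144 in Apc_WT (-0.62, SE 0.26, limma adjusted p = 0.0706), and it passed with size factors at -0.74 and without Apc_KO replicate 4 at -0.82. Mrpl24, at a locus shared with Rrnad1, averaged 94.8 ± 35.5 FPKM in Apc_KO and 93.9 ± 14.7 in Apc_WT (SD, n = 4 each; -0.04, SE 0.20). Mrps28 was at 208, 164, 442 and 834 FPKM in Apc_KO, and at 218, 385, 475 and 180 in Apc_WT, too uneven within a genotype for its 0.20 (SE 0.49) to be read.

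Loss of 1 Apc copy gave no call. For Apc_HET minus Apc_WT 0 of 147 members were called, as were 0% of all genes (limma), and 0 members had an unadjusted p under 0.05, against 561 of 12962 genes. The subunit medians were 0.05, 0.02, -0.04 and -0.04 in the order cytosolic large, cytosolic small, mitochondrial large and mitochondrial small, beside 0.07 for all genes. In 3 members (Rpl4, Rpl21 and Mrpl19) every Apc_HET library was above every Apc_WT library, and in 0 members every one was below, where 5.46% of all genes were wholly higher, 0.617% wholly lower and 6.08% either. Mrpl19, at a locus shared with Gcfc2, had 7.21, 7.36, 7.05 and 7.81 FPKM in Apc_HET and 6.78, 6.94, 6.64 and 6.88 in Apc_WT (0.10, SE 0.12). The members of smallest p among those named in each direction did not pass: the joined Mrps6,Slc5a3 entry at 0.25 (SE 0.17) and Mrps26 at 0.22 (SE 0.23) on the higher side, and Mrpl41 at -0.33 (SE 0.28), Mrpl18 at -0.30 (SE 0.23) and Mrpl43 at -0.17 (SE 0.17) on the lower.

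For Apc_KO minus Apc_HET, which asks about loss of the second copy, 7 of 147 members were called, all mitochondrial, 2 higher and 5 lower, where 41.8% of all genes were called, 22.8% higher and 18.9% lower (limma). This comparison shares the Apc_KO libraries with the one above, so its values are given side by side with those. Mrps5 fell by 0.61, Mrps31 by 0.61, Mrps2 by 0.55, Mrpl37 by 0.52 and Mrpl9 by 0.46 on the log2 scale. Mrpl17, of the large subunit, had 8.15, 14.6, 11.1 and 20.9 FPKM in Apc_KO, 8.53, 7.90, 7.56 and 7.69 in Apc_HET and 7.97, 8.66, 8.81 and 10.4 in Apc_WT. It rose over Apc_HET by 0.65 (SE 0.21, limma adjusted p = 0.0275) with overlapping libraries, and against Apc_WT its 0.49 did not pass (limma adjusted p = 0.0760). The joined Mrps6,Slc5a3 entry rose by 0.51 (SE 0.17, limma adjusted p = 0.0298). Both higher calls were lost without Apc_KO replicate 2, without Apc_HET replicate 2 or 4 and in a fit of the 2 genotypes alone. That of Mrpl17 was also lost without Apc_HET replicate 3, and that of the joined entry without Apc_KO replicate 1 or 3 and with quantile normalization. With quantile normalization 4 of 77 cytosolic members were called higher, Rpl7 and Rplp0 among them, beside 20.2% of all genes.

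Because the members of a ribosome move together by library, each was also set against the median of its own ribosome in the same library, an alternative chosen after the data were seen. On that scale 9 mitochondrial and 0 cytosolic members differed between Apc_KO and Apc_WT, where 35.9% and 19.3% of all genes were called with the same 2 centrings (limma). Of all genes, 26% were called higher and 9.85% lower on the mitochondrial centring, and 8.67% higher and 10.6% lower on the cytosolic one. Higher relative to their ribosome were Mrps6,Slc5a3 (0.93), Mrpl17 (0.66), Mrpl54 (0.59), Mrpl22 (0.46), Mrps18a (0.42) and Mrpl40 (0.38). Lower were Mrps31 (-0.49), Mrpl42 (-0.45) and Mrps5 (-0.43). Mrpl37, Mrpl9 and Mrps2 were no longer called, at -0.34, -0.27 and -0.43. Mrpl54, which shares a locus with Matk, Mrpl22 and Mrpl40, which shares a locus with Hira, were named after their values were seen. Between Apc_KO and Apc_HET 9 members differed on this scale, 4 higher and 5 lower, among them Rpl41 at 0.72, the 1 cytosolic member. Of all genes, 28.6% were called on the mitochondrial centring (17.9% higher, 10.6% lower) and 17.6% on the cytosolic one (7.71% higher, 9.84% lower). Members were also set against the median of the other ribosome. Between Apc_KO and Apc_WT 20 of 77 cytosolic members were then higher and 0 lower, beside 26% and 9.85% of all genes. Of 69 mitochondrial members 0 were higher and 3 lower, beside 8.67% and 10.6% of all genes.

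Paralogs compare ribosomal genes within a library, so a shift common to the ribosome cancels. For 7 pairs and 3 comparisons, 21 exact two-sided permutation tests of the log2 ratio of (FPKM + 1) were made, with 4 libraries against 4, where the smallest p is 0.0286 and the smallest adjusted p reached was 0.2. Mrps18a, Mrps18b and Mrps18c are paralogs of 1 ribosomal protein family, and no exchange of one for another was measured. The log2 ratio Mrps18a/Mrps18b was 0.88, 1.05, 0.89 and 1.12 in Apc_KO, 0.67, 0.46, 0.67 and 0.42 in Apc_HET and 0.50, 0.27, 0.54 and 0.63 in Apc_WT. Every Apc_KO library was above all others, by 0.50 over Apc_WT and 0.43 over Apc_HET (exact permutation p = 0.0286 each, adjusted p = 0.2 each), which does not pass over the 21 tests. In FPKM, Mrps18a, whose symbol stands at 2 loci, had 47.5, 96.5, 72.2 and 114 in Apc_KO and 59.4, 58.7, 68.3 and 77.5 in Apc_WT, and Mrps18b 25.3, 45.9, 38.6 and 52.0 in Apc_KO and 41.7, 48.6, 46.6 and 49.8 in Apc_WT.

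Other pairs gave smaller or less even shifts. Mrps18c/Mrps18b differed by 0.60 between Apc_KO and Apc_WT (exact permutation p = 0.0571, adjusted p = 0.24), with Apc_KO at -0.13, -0.18, -0.42 and 0.80 and Apc_WT at -0.54, -0.66, -0.71 and -0.39, and Mrps18c shares a locus with Helq. Rpl7l1/Rpl7, the ratio of a Rpl7-like gene to Rpl7, was -3.14, -2.77, -2.61 and -3.66 in Apc_KO and -2.54, -2.73, -2.35 and -2.57 in Apc_WT (-0.50, exact permutation p = 0.0571, adjusted p = 0.24). Rps27l, known as a p53 target, relative to Rps27 was at 0.01, -0.03, -0.32 and 0.16 in Apc_HET and 0.21, 0.59, 0.53 and 0.35 in Apc_WT, without overlap (-0.46, exact permutation p = 0.0286, adjusted p = 0.2). In Apc_KO that ratio spread from -0.68 to 0.41. Rpl22l1/Rpl22 differed by 0.23, Rpl36al/Rpl36a by -0.21 and Rps4y2/Rps4x by 0.22 between Apc_KO and Apc_WT, with adjusted p from 0.3 to 0.471 in the exact permutation test. Rps4y2 is a synonym of Rps4l in RefSeq, and Rpl36al shares a locus with Mgat2.

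**Figure D5:**
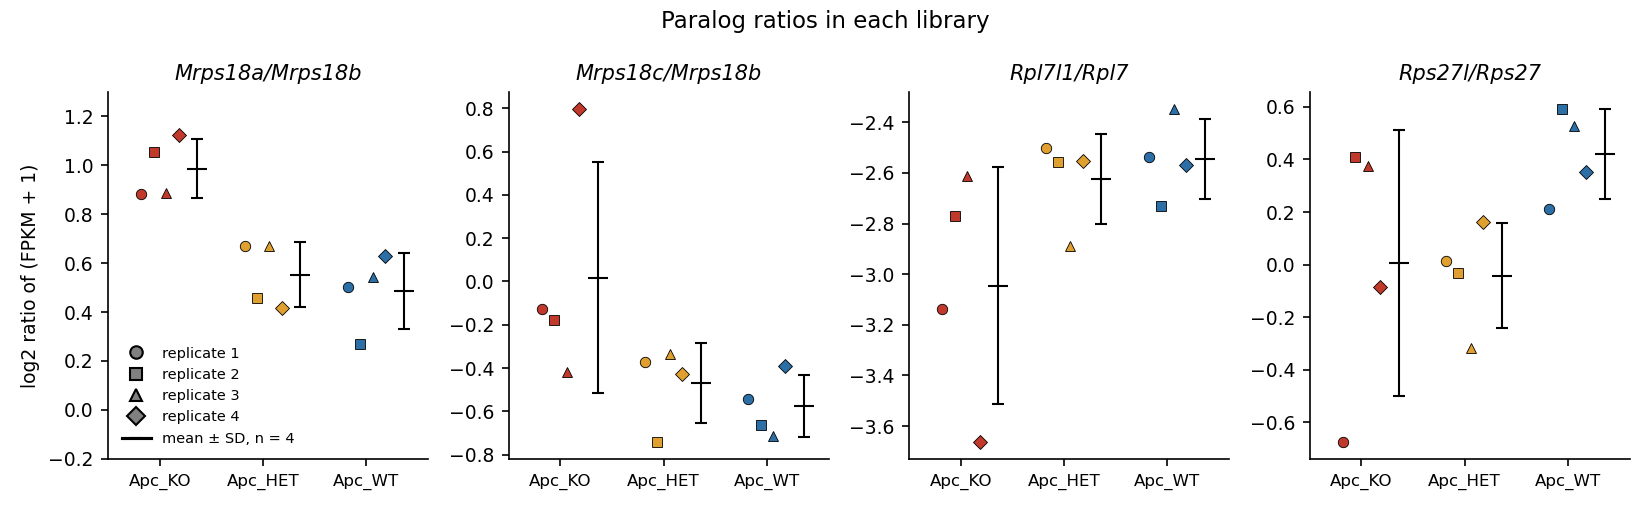
Log2 ratios of (FPKM + 1) of 4 paralog pairs (y axis, scale set per panel) by genotype (x axis); points are libraries and bars mean ± SD (n = 4). For Mrps18a/Mrps18b the Apc_KO libraries lie from 0.88 to 1.12 and the Apc_WT libraries from 0.27 to 0.63.

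Genes that work with the 2 ribosomes were followed in 7 lists. Of 7 mitochondrial ribosomal proteins outside the name pattern (Dap3, Ptcd3, Chchd1, Aurkaip1, Gadd45gip1, Ict1 and Mrp63) 0 were called between Apc_KO and Apc_WT, beside 45.5% of all genes. Their median was 0.09, beside 0.12 for all genes, with a range from -0.23 for Ptcd3 to 0.28 for Mrp63. Their median deviations were -0.62, 0.28, -0.13 and 0.89 in Apc_KO replicates 1 to 4. Gnb2l1, the Rack1 scaffold of the small subunit, had 566, 899, 664 and 1311 FPKM in Apc_KO, in the same order of libraries, and differed by 0.06 (SE 0.25).

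Of 13 factors of mitochondrial translation 4 fell and 0 rose against Apc_WT, with a median of -0.30, and 7 fell and 0 rose against Apc_HET, beside 17.7% and 18.9% of all genes called lower. Lrpprc, which stabilises mitochondrial mRNAs, had 25.3, 40.7, 41.2 and 34.4 FPKM in Apc_KO and 71.3, 81.3, 73.2 and 61.2 in Apc_WT, and fell by 1.02 (SE 0.15, limma adjusted p = 0.000169). Tufm, the mitochondrial elongation factor Tu, had 18.7, 39.4, 38.4 and 28.8 FPKM in Apc_KO and 45.4, 50.5, 54.2 and 46.8 in Apc_WT, and fell by 0.69 (SE 0.19, limma adjusted p = 0.0112). Gfm2, which helps split the mitochondrial ribosome after termination, fell by 0.54, and Mtif2, an initiation factor, fell by 0.30. Gfm2 and Mtif2 were named after their values were seen. In all 4 the Apc_KO libraries were wholly below Apc_WT, as in 16% of all genes. Of 15 mitochondrial ribosome assembly factors 1 fell and 0 rose: Fastkd2, an RNA-binding assembly factor, was at 14.6 ± 5.41 FPKM in Apc_KO and 22.7 ± 1.61 in Apc_WT (SD, n = 4 each), a fall of 0.67.

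Of 30 cytosolic initiation factors 10 rose and 1 fell in Apc_KO against Apc_WT, with a median of 0.22, beside 27.9% of all genes called higher. Against Apc_HET 4 rose and 1 fell, beside 22.8% called higher, and neither Eif1 nor Pabpc1 was among them. Eif1, which scans for the start codon, had 196, 210, 171 and 385 FPKM in Apc_KO and 133, 167, 141 and 152 in Apc_WT (0.63, SE 0.21, limma adjusted p = 0.0297). Pabpc1, the poly(A)-binding protein, had 912, 792, 914 and 769 FPKM in Apc_KO and 585, 634, 586 and 496 in Apc_WT (0.56, SE 0.17, limma adjusted p = 0.0164), with no overlap and without the order of libraries seen in ribosomal protein genes. Eif4b, a helper of the helicase eIF4A named as the 1 that fell, fell by 0.37. Of 7 elongation factors 1 rose, Eef1e1, an accessory protein of the tRNA synthetase complex, at 79.9 ± 37.4 FPKM in Apc_KO and 38.8 ± 2.04 in Apc_WT (SD, n = 4 each; 0.91, SE 0.25).

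Of 10 regulators of mTOR and of TOP mRNAs 2 rose and 0 fell against Apc_WT, beside 27.9% of all genes called higher and 17.7% lower, and 2 rose and 0 fell against Apc_HET, beside 22.8% and 18.9%. Eif4ebp1, the translation inhibitor that mTOR switches off by phosphorylation, had 31.6, 49.5, 44.4 and 69.3 FPKM in Apc_KO and 18.0, 26.7, 26.6 and 22.9 in Apc_WT (0.98, SE 0.20, limma adjusted p = 0.00161). Rheb, the GTPase that activates mTOR, had 57.3, 74.1, 59.8 and 84.3 FPKM in Apc_KO and 40.6, 47.4, 39.7 and 40.2 in Apc_WT (0.69, SE 0.14, limma adjusted p = 0.00144). In both genes every Apc_KO library was above every Apc_WT library, as in 24.3% of all genes. Larp1, which binds the TOP motif and was named after its values were seen, had a difference of -0.39 (SE 0.20, limma adjusted p = 0.142) that did not pass. Against Apc_WT, 0 genes of all 7 lists were called in Apc_HET cells (limma), beside 0% of all genes. An unadjusted p under 0.05 was found for 2 genes of the lists, and for 561 of all 12962 genes.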

How the data were processed

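RNA of Lgr5-GFP+ cells was sequenced in 12 libraries, 4 per genotype. The deposited values are FPKM per gene locus, per the file headers, 1 table a library. Per the submitters' processing notes, Bowtie, TopHat, Cufflinks and Cuffdiff were used with mm10 (GRCm38). Their versions are not given in the sources used here. FPKM keeps no absolute depth, so precision rests on the 4 libraries of a group.

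FPKM was summed per symbol, and the 12962 symbols with at least 1 FPKM in at least 4 libraries and a usable estimate in all were tested. Estimates that had failed in a library, and symbols whose loci differed between tables, were left out. limma 3.58.1 (R 4.3.3; lmFit, contrasts.fit, eBayes with trend) was fitted to log2(FPKM + 1) of all 12 libraries at once, two-sided, with Benjamini-Hochberg adjustment over all genes and calls at an adjusted p under 0.05. Differences on this scale understate changes of low genes. Paralog ratios were compared by exact permutation over 70 regroupings. The code was tested on simulated data. Python 3.11.15, numpy 2.4.6, pandas 2.3.3 and matplotlib 3.10.9 were used.

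Members named are those called (up to 4 a direction and subunit against Apc_WT, 2 against Apc_HET), the 3 of smallest p in each direction where none was called, the P stalk genes, Rpsa, Rps19bp1, the paralog pairs, the 2 of highest mean in each subunit and those under the filter. In the other lists up to 2 called genes were named, and exceptions are marked. The values of 1 gene that the rule names are not reported here. The members, lists and tests were chosen with earlier results of these data known. Alternatives were size factors, quantile normalization, another pseudocount (0.1), a filter of 5 FPKM or none, fits of 2 genotypes, a replicate block, all symbols kept, joined symbols left out and leaving out each library. Centring on the median of the own or of the other ribosome was added after the data were seen.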

Additional observations from a re-analysis of the deposited data

Results flagged for a closer look

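A library stood apart from the other 3 of its genotype, by Dixon's gap criterion for 4 values, in 11 of 147 groups of values tested, where chance alone gives about 1 in 20. No cause was tested.

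In Apc_KO cells, Rps28 of replicate 4 was at 3229.8 FPKM, against 1084 to 1360 in the others, and the joined Mrps6,Slc5a3 entry of replicate 4 was at 83.8 FPKM, against 110 to 111. Mrps26 of replicate 1 was at 81.1 FPKM, against 49.7 to 54.8. The entry named Mrps24 alone, under the expression limit, was at 0.132 FPKM in replicate 2, against 0.413 to 0.465.

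In Apc_HET cells, replicate 4 had 1.57 FPKM of Mrpl18, against 0.728 to 0.854, and 23.1 FPKM of Mrps31, against 19.2 to 19.8. Its mitochondrial sum of 2881 FPKM lay below the 3073 to 3098 of the others. Replicate 3 had 40.2 FPKM of Mrps18b, against 43.4 to 43.6, 674 FPKM of Rps4x, against 622 to 627, and a log2 ratio Rpl7l1/Rpl7 of -2.89, against -2.56 to -2.50.

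In Apc_WT cells, the mitochondrial sum of replicate 1 was 2749 FPKM, against 3168 to 3193 in the others.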

How the results depend on the processing

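The members called between Apc_KO and Apc_WT numbered 6, and 13 with size factors and 15 with quantile normalization, where 45.5%, 44.0% and 44.8% of all genes were called. Leaving out each library in turn gave 6 to 19, with 13 without Apc_KO replicate 1 and 19 without Apc_KO replicate 4, and all of these held the 6. In those fits 40.5% to 48.4% of all genes were called. Between Apc_KO and Apc_HET 7 were called, 14 with quantile normalization and 5 to 18 when each library was left out, with 14 without Apc_KO replicate 1 and 18 without replicate 4. There 42.9% of all genes were called with quantile normalization and 35.2% to 43.4% with a library left out. Between Apc_HET and Apc_WT 0 were called in every setting run. With joined symbols left out the mitochondrial sum averaged 2893 FPKM in Apc_HET cells. The other 496 summary values compared were labelled unchanged, but for most of them that label says little. A subunit median was allowed to move by the larger SD between libraries of either genotype. That SD was 0.41 to 0.72 for Apc_KO minus Apc_WT, wider than the medians themselves. Paralog ratios were given no limit. Subunit medians, which have no test, changed sign in 17 of 204 cases, and paralog ratios, of which none passed, in 12 of 210. Leaving out each library, the Apc_KO minus Apc_WT medians ran from -0.02 to 0.49 (cytosolic large), -0.06 to 0.49 (cytosolic small), -0.27 to 0.09 (mitochondrial large) and -0.38 to -0.01 (mitochondrial small). Of 1938 values of named members, 25 became called and 17 lost their call. The replicate block gave 6 calls between Apc_KO and Apc_WT and 9 between Apc_KO and Apc_HET. Replicate numbers did not pair the libraries: deviations of same-numbered libraries correlated at -0.195 to 0.180 over 12 pairs, 3 of them over 0.1, and 3 libraries correlated best with their own number. Causes were not tested. Depth cannot be given as counts, so low members such as Mrpl18 have no counting error.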
